A study of Homo sapiens with 12 samples.

Results

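Heat shock proteins and their co-chaperones were represented by 10 genes, chosen by name: the HSP70 chaperones HSPA1A, HSPA1B, HSPA8 and HSPA13, the HSP110 exchange factor HSPH1, the HSP90 chaperone HSP90AA1, the small heat shock protein HSPB1, the J proteins DNAJA1 and DNAJB1, and the BAG co-chaperone BAG3. They are 10 of the 19128 gene symbols measured, and all 10 passed the filter on low values, as did 10364 genes in all. The cells were HT-29, a human colorectal adenocarcinoma line, and polyadenylated RNA was sequenced from 12 libraries of 2 experiments. TBZ is TNFα at 20 ng/mL with BV6 at 2 µM, which antagonises IAP proteins, and the caspase blocker zVAD-fmk at 30 µM, a mixture used to drive necroptosis. The second experiment had 2 libraries in each of 4 groups: shMLKL cells after 5 h of TBZ, shMLKL cells under DMSO, shGFP cells after 5 h of TBZ, and shGFP cells under DMSO. The first had 4 single libraries: parental HT-29 cells after 4 h of TBZ and under DMSO, and shMLKL cells after 12 h of TBZ and under DMSO. The shMLKL cells carry a lentiviral knockdown of MLKL, the executioner that permeabilises the plasma membrane when cells die by necroptosis. The labels give no knockdown for the shGFP and parental cells. Whether a line is 1 clone or a pool is not given in the sources used here. The labels do not tell whether the 2 libraries of a group are separate cultures, and the p-values then cover only how far these libraries vary, which could be technical variation.

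HSP70 chaperones bind exposed hydrophobic stretches of unfolded or newly made proteins and release them in a cycle of ATP hydrolysis. J proteins such as DNAJA1 and DNAJB1 bring the client and start the hydrolysis, and exchange factors such as HSPH1 and BAG3 let the ADP go. HSP90 takes over clients near their folded state, among them many kinases, and small heat shock proteins such as HSPB1 hold unfolded proteins without using ATP. After heat or other stress to proteins the transcription factor HSF1 binds heat shock elements, arrays of inverted GAA units in the promoters of many of these genes. HSPA8 is the constitutive HSP70 of the cytosol, HSPA1A and HSPA1B are its stress-inducible relatives, and HSPA13 is a member of the family associated with microsomes.

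The promoters of these genes were searched for the heat shock element, and the stretches that hold a pair of its inverted units are shown. In the 250 bases before each RefSeq start site (GRCh38.p14), the pair of inverted units GAANNTTC or TTCNNGAA was present in 7 of the 10 members, in 7 of their 13 start sites, against 11.6% of all 35116 promoters. These motifs read the same on both strands. The sequences below run 5′ to 3′ on the strand of the gene, with the matched units in capitals.
HSPA1A: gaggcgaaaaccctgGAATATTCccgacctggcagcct
HSPA1B: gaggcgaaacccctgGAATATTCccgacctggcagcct
HSPA8: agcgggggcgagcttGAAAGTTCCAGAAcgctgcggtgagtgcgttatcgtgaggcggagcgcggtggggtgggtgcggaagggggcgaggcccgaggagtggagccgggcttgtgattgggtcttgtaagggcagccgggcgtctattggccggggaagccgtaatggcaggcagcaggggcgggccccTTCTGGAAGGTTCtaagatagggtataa
HSP90AA1: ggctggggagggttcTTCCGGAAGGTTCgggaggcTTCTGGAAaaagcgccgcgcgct
HSPB1: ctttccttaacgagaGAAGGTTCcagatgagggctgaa
DNAJA1: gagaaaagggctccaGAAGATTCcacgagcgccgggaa
DNAJB1: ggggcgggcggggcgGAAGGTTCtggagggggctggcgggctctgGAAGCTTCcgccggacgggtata

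These stretches lie at chr6:31815422-31815459 for HSPA1A, chr6:31827618-31827655 for HSPA1B, chr11:123062164-123062381 for HSPA8, chr14:102087090-102087147 for HSP90AA1, chr7:76302476-76302513 for HSPB1, chr9:33025060-33025097 for DNAJA1 and chr19:14518422-14518489 for DNAJB1. The genes HSPA1A, HSPA1B, HSPB1 and DNAJA1 are on the forward strand and HSPA8, HSP90AA1 and DNAJB1 on the reverse. HSP90AA1 has 2 annotated start sites and DNAJB1 has 3, and in each gene 1 of them carried the motif. A longer run of the element, the pair with a further inverted unit after it on either strand, was found for HSPA8 and HSP90AA1, against 0.441% of all promoters, and each run contains 2 overlapping pairs. HSPA8 holds 2 such runs, 230 and 55 bases before the start. HSPA13, HSPH1 and BAG3 had neither motif in this window. The BAG3 window held TGANTCA, the core of an AP-1 site, 19 bases before the start, a motif found in 6.57% of promoters and in no other member. A match describes letters and does not show binding.

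Values of the second experiment were taken as FPKM, fragments scaled to transcript length and to the total of mapped fragments. From the smallest values the libraries' depth was estimated at 82.9 to 100.0% of the deepest, and 9606 to 10047 genes reached 1 FPKM. Across genes on the log2 scale, Pearson correlations were 0.9894 to 0.9916 within groups and 0.9282 to 0.9674 between groups. A value of 0 in this table can be a failed estimate: of 5271 genes that reached 10 FPKM in a library, 49 were listed at 0 in another, among them the keratin genes KRT8 and KRT18, which stood at 694 and 535 FPKM in shMLKL DMSO library 2 and at 0 in the other 7 libraries. No member was listed at 0 in any library. Of 11 markers of colon epithelium 9 reached 1 FPKM, while CDX1 and CDX2 stayed under 0.21 FPKM in every library. Their summed level lay at 875 and 870 FPKM in shMLKL TBZ, 1053 and 2302 in shMLKL DMSO, 811 and 817 in shGFP TBZ and 812 and 813 in shGFP DMSO. The leukocyte markers summed to 0.377 to 1.59 FPKM and those of fibroblasts and endothelium to 0.0804 to 0.514 FPKM. The 8 markers of kidney and liver summed to 45.9 and 44.0 FPKM in shMLKL TBZ, 16.2 and 16.9 in shMLKL DMSO, 61.9 and 57.4 in shGFP TBZ and 16.2 and 17.0 in shGFP DMSO. That sum was nearly all SERPINA1, with ALB, AFP and UMOD at 0 in every library, and its part in the members' response to TBZ was not tested. MLKL itself (hg19 chromosome 16, 74705753 to 74734789) stood at 0.651 and 0.395 FPKM in shMLKL TBZ, 0.606 and 0.545 in shMLKL DMSO, 1.98 and 2.03 in shGFP TBZ and 3.95 and 3.89 in shGFP DMSO. It was lower in shMLKL cells under TBZ (log2 difference −0.99, SE 0.10, limma adjusted p = 0.000152) and under DMSO (−1.64, SE 0.10, limma adjusted p = 9.87e-06).

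The response of cells without the MLKL knockdown was read from the shGFP line. MLKL itself fell with TBZ there (log2 change −0.71, SE 0.10, limma adjusted p = 0.000595). With 5 h of TBZ, 9 of the 10 chaperone genes rose and HSPB1 fell. DNAJA1 rose 2.73-fold, DNAJB1 2.24-fold and the pair HSPA1A and HSPA1B 1.91-fold and 1.78-fold, while HSPH1 and HSP90AA1 rose 1.32-fold and 1.30-fold. Of all genes tested, 19.1% were called higher and 37.3% lower (56.4% in either direction), at a Benjamini-Hochberg adjusted p under 0.05 in limma, so the 9 members called higher stand against a background that moved more often downward. With library medians set equal that split was 2345 genes higher and 2927 lower in place of 1980 and 3864, and the members' calls stayed at 9 and 1. The median log2 change was 0.67 over the members and −0.12 over all genes.

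The same treatment in shMLKL cells gave smaller changes. Here 8 members rose and HSPB1 fell, against 20% of all genes called higher and 17.6% lower (37.5% in either direction). DNAJA1 again moved most, 2.19-fold, followed by BAG3 at 1.57-fold and the HSPA1A and HSPA1B pair at 1.54-fold and 1.55-fold. DNAJB1 was not called, at 0.91 times its DMSO level. The median log2 change was 0.30 over the members and −0.004 over all genes. The calls were 6 higher and 2 lower with library medians set equal or with quantile normalization, 6 higher and 0 lower with no filter on low values, and 5 higher and 0 lower without shMLKL TBZ library 2. Values come from bulk RNA, in which fewer cells carrying a transcript and less of it per cell cannot be told apart.

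**Figure D1:**
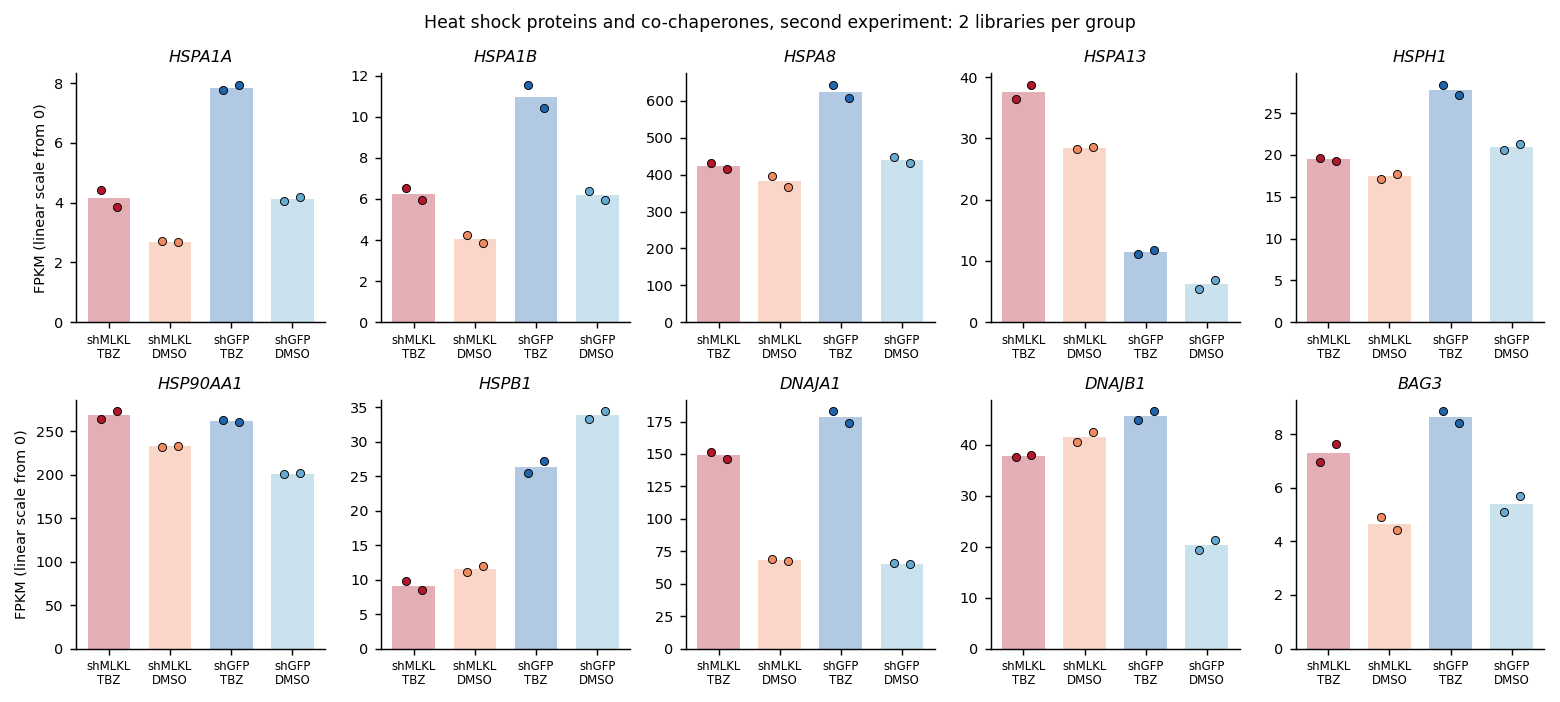
FPKM of each member (vertical axes, linear, starting at 0) in the 4 groups of the second experiment, with bars at the mean of 2 libraries and points for each library. HSPA13 is highest in the shMLKL groups, HSPB1 in the shGFP groups, and DNAJB1 has its lowest values, 19.4 and 21.4 FPKM, in shGFP DMSO.

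Of the 4 HSP70 chaperones HSPA8 (chromosome 11, 122928200 to 122933043, reverse strand) was by far the most abundant. Per length, it had 433 and 415 FPKM in shMLKL TBZ and 397 and 367 in shMLKL DMSO. In shGFP cells it had 643 and 607 FPKM under TBZ, against 449 and 432 under DMSO. The shGFP TBZ libraries thus stood above all others, and the shMLKL TBZ libraries overlapped the shGFP DMSO libraries. Its rise in shGFP cells was 0.50 on the log2 scale (SE 0.05, limma adjusted p = 0.000127). In shMLKL cells the change was 0.15 (SE 0.05, limma adjusted p = 0.0493), a call at the edge of the threshold. Among the 8 fits that each left out 1 library it was kept in 1, the fit without shMLKL DMSO library 1, with adjusted p between 0.0342 and 0.246 over the 8.

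HSPA1A (chromosome 6, 31783291 to 31785719) and HSPA1B (chromosome 6, 31795512 to 31798031), neighbours on the forward strand, encode nearly the same protein. HSPA1A stood at 4.44 and 3.87 FPKM in shMLKL TBZ, 2.71 and 2.68 in shMLKL DMSO, 7.76 and 7.93 in shGFP TBZ and 4.05 and 4.18 in shGFP DMSO. For HSPA1B the values were 6.52 and 5.95, 4.24 and 3.83, 11.5 and 10.4, and 6.39 and 5.96 FPKM in the same groups. In both genes the shGFP TBZ libraries were the highest and the shMLKL DMSO libraries the lowest, and shMLKL TBZ overlapped shGFP DMSO. Both genes rose with TBZ in shMLKL cells (log2 changes 0.48 and 0.52, limma adjusted p = 0.00147 and 0.0015) and in shGFP cells (0.79 and 0.74, limma adjusted p = 6.77e-05 and 0.000155). The 2 transcripts share 1666 stretches of 100 bases, 69.9% of those in HSPA1A and 68.8% of those in HSPA1B, so the division of reads between them is uncertain. Each symbol also stood on 5 lines of the deposited table, and the levels above are those of the line with the highest mean. The TBZ over DMSO ratio ran over those lines between 1.52 and 1.55 for HSPA1A in shMLKL cells and between 1.88 and 1.91 in shGFP cells. For HSPA1B it ran between 1.44 and 1.55 in shMLKL cells and between 1.78 and 1.81 in shGFP cells.

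HSPA13 (chromosome 21, 15743437 to 15755509, reverse strand) behaved unlike HSPA8, HSPA1A and HSPA1B between the lines. It had 36.4 and 38.7 FPKM in shMLKL TBZ and 28.3 and 28.6 in shMLKL DMSO. The shGFP libraries held 11.2 and 11.7 FPKM under TBZ, against 5.49 and 6.97 under DMSO. All shMLKL libraries thus lay above all shGFP libraries. TBZ raised it in shGFP cells (log2 change 0.79, SE 0.09, limma adjusted p = 0.000243) and in shMLKL cells (0.39, SE 0.09, limma adjusted p = 0.0117). That second call was lost without shMLKL DMSO library 1 (adjusted p = 0.0599) and without shMLKL TBZ library 2 (adjusted p = 0.0715).

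HSPH1 (chromosome 13, 31709111 to 31736525, reverse strand), which promotes nucleotide exchange on HSP70, had 19.6 and 19.3 FPKM in shMLKL TBZ and 17.1 and 17.7 in shMLKL DMSO. Under TBZ the shGFP libraries held 28.3 and 27.1 FPKM, against 20.6 and 21.3 under DMSO. Even after TBZ, shMLKL cells did not reach the DMSO level of shGFP cells. The gene rose by 0.39 on the log2 scale in shGFP cells (SE 0.04, limma adjusted p = 0.000195). In shMLKL cells the rise was 0.15 (SE 0.04, limma adjusted p = 0.0249). It was no longer called without shMLKL DMSO library 1 (adjusted p = 0.113), shMLKL TBZ library 1 (0.0947) or shMLKL TBZ library 2 (0.065), nor with library medians set equal (log2 change 0.12, adjusted p = 0.0635).

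HSP90AA1 (chromosome 14, 102547075 to 102606086, reverse strand), the stress-inducible HSP90 of the cytosol, reached nearly the same level in both lines under TBZ. It had 264 and 273 FPKM in shMLKL TBZ and 232 and 233 in shMLKL DMSO. The shGFP libraries held 263 and 261 FPKM under TBZ, against 200.5 and 202 under DMSO. The 4 TBZ libraries were the highest, and among the DMSO libraries those of shMLKL lay above those of shGFP. TBZ raised it by 0.21 on the log2 scale in shMLKL cells (SE 0.03, limma adjusted p = 0.00137) and by 0.38 in shGFP cells (SE 0.03, limma adjusted p = 3.74e-05).

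The 2 J proteins parted in their response. DNAJA1 (chromosome 9, 33025209 to 33039062, forward strand), a cytosolic partner of HSPA8, had 152 and 146 FPKM in shMLKL TBZ and 69.0 and 67.2 in shMLKL DMSO. Its shGFP values were 183 and 174 FPKM under TBZ, against 65.7 and 65.1 under DMSO. In each line the TBZ libraries lay far above the DMSO libraries, and the lines lay close together under DMSO. The log2 change was 1.12 in shMLKL cells (SE 0.04, limma adjusted p = 9.57e-07) and 1.43 in shGFP cells (SE 0.04, limma adjusted p = 1.13e-07). By size of rise DNAJA1 ranked 179th of 10364 genes in shMLKL cells and 223rd in shGFP cells.

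DNAJB1 (chromosome 19, 14625576 to 14629371, reverse strand), a J protein known for disaggregation of proteins with HSP70 and for restraining HSF1, had 37.5 and 38.0 FPKM in shMLKL TBZ and 40.6 and 42.5 in shMLKL DMSO. In shGFP cells it stood at 44.8 and 46.6 FPKM under TBZ, against 19.4 and 21.4 under DMSO. The shGFP DMSO libraries were the low ones, and the other 6 libraries lay between 37.5 and 46.6 FPKM. It rose in shGFP cells by 1.13 on the log2 scale (SE 0.05, limma adjusted p = 2.00e-06). In shMLKL cells the change was −0.13 (SE 0.05, limma adjusted p = 0.0813), with a 95% interval of −0.25 to −0.01. That small decrease passed the threshold with library medians set equal (adjusted p = 0.0469), with quantile normalization (0.0211), and without shGFP DMSO library 1 (0.0436) or library 2 (0.0439).

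BAG3 (chromosome 10, 121410882 to 121437329, forward strand), which links HSP70 to HSPB8 and to selective autophagy, had 6.97 and 7.64 FPKM in shMLKL TBZ and 4.90 and 4.41 in shMLKL DMSO. The shGFP libraries held 8.84 and 8.41 FPKM under TBZ, against 5.10 and 5.69 under DMSO. In each line the TBZ libraries lay above the DMSO libraries, by nearly the same step. The log2 change was 0.55 in shMLKL cells (SE 0.08, limma adjusted p = 0.00111) and 0.59 in shGFP cells (SE 0.08, limma adjusted p = 0.000486).

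HSPB1 (chromosome 7, 75931875 to 75933614, forward strand), the small heat shock protein HSP27, ran the other way. It had 9.78 and 8.49 FPKM in shMLKL TBZ and 11.04 and 11.96 in shMLKL DMSO. Under TBZ the shGFP libraries held 25.5 and 27.3 FPKM, against 33.3 and 34.4 under DMSO. In each line TBZ libraries were below DMSO libraries, and all shMLKL libraries were below all shGFP libraries. HSPB1 fell by 0.30 on the log2 scale in shMLKL cells (SE 0.07, limma adjusted p = 0.0126) and fell by 0.35 in shGFP cells (SE 0.07, limma adjusted p = 0.00445). The call in shMLKL cells was lost without shMLKL DMSO library 2 (adjusted p = 0.073) and without shMLKL TBZ library 2 (adjusted p = 0.0628).

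**Figure D2:**
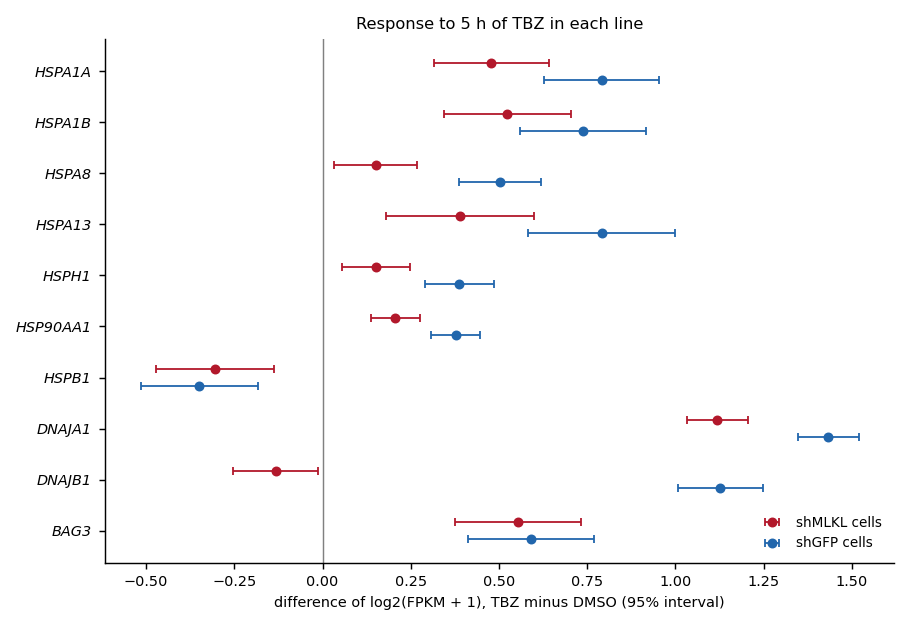
Log2 change of each member with 5 h of TBZ (horizontal axis, log2(FPKM + 1), TBZ minus DMSO, points with 95% limma intervals) in shMLKL cells and in shGFP cells. DNAJB1 separates the lines most, at −0.13 in shMLKL and 1.13 in shGFP cells, and BAG3 and HSPB1 have nearly the same change in both.

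Whether the response differed between the lines was tested as the difference of the TBZ effects, shMLKL minus shGFP. By limma the response of 5 members was smaller in shMLKL cells and that of 0 larger (7 at an unadjusted p under 0.05, all smaller), against 7.66% of all genes called lower and 14.6% called higher in this contrast (22.3% in either direction). DNAJB1 led, with a difference of −1.26 on the log2 scale (95% interval −1.43 to −1.09, limma adjusted p = 5.31e-05), and it ranked 10251st of the 10364 genes ordered from the highest value. HSPA8 followed at −0.35 (−0.52 to −0.19, limma adjusted p = 0.0135) and DNAJA1 at −0.31 (−0.44 to −0.19, limma adjusted p = 0.00628). HSPH1 at −0.24 (−0.37 to −0.10, limma adjusted p = 0.0292) and HSP90AA1 at −0.17 (−0.27 to −0.07, limma adjusted p = 0.0275) were near the threshold.

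The remaining 5 members did not pass. HSPA13 differed by −0.40 (95% interval −0.70 to −0.11, limma adjusted p = 0.0577) and HSPA1A by −0.31 (−0.54 to −0.08, limma adjusted p = 0.0588). HSPA1B differed by −0.22 (−0.47 to 0.04, limma adjusted p = 0.19). BAG3 and HSPB1 had differences of −0.04 (−0.29 to 0.22) and 0.04 (−0.19 to 0.28), intervals that hold 0 and do not show that the lines responded alike. The median difference was −0.27 over the members and 0.10 over all genes. With library medians set equal, 696 genes were called higher and 1091 lower in place of 1512 and 794. In that setting 7 members were called lower, HSPA13 and HSPA1A included. HSPA1A was also called with summed lines (limma adjusted p = 0.0461), quantile normalization (0.0154) and no trend (0.0472). HSPA13 was also called with the filter at 5 FPKM (limma adjusted p = 0.048), quantile normalization (0.0199) and the replicate block (0.0377). With 1 library left out, the difference ranged from −0.55 to −0.255 for HSPA13 and from −0.392 to −0.233 for HSPA1A. The calls of DNAJB1 and DNAJA1 were kept in all 8 fits that each left out 1 library, that of HSPA8 in 7, lost without shGFP DMSO library 2 (adjusted p = 0.0532). HSP90AA1 was kept in 1 of the 8, without shMLKL TBZ library 2, and HSPH1 in 2, without shGFP TBZ library 2 or shMLKL DMSO library 1. Their adjusted p ranged to 0.0788 and 0.0885. Without the trend both calls were lost (adjusted p = 0.0889 for HSP90AA1 and 0.0506 for HSPH1), and with quantile normalization the difference of HSP90AA1 turned to 0.03 (adjusted p = 0.721).

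The lines were also compared within each condition, shMLKL against shGFP. Under DMSO HSPA13 was 4.56-fold and DNAJB1 2.04-fold higher in shMLKL cells, and HSP90AA1 was 1.16-fold higher. HSPB1 stood at 0.34 times its shGFP level, and HSPA1A, HSPA1B, HSPH1 and HSPA8 at 0.65 to 0.87 times. These 3 members called higher and 5 called lower stand beside 18.3% and 44.8% of all genes, so that 8 of 10 members differed in either direction against 63.1% of all genes. For HSPA13 the log2 difference was 2.03 (SE 0.09, limma adjusted p = 3.31e-06), the 11th highest of 10364 genes, and for HSPB1 −1.48 (SE 0.07, limma adjusted p = 4.55e-06). For DNAJB1 it was 0.99 (SE 0.05, limma adjusted p = 6.24e-06). DNAJA1 at 0.06 (95% interval −0.03 to 0.14) and BAG3 at −0.18 (−0.36 to 0.001) were not called.

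This contrast also depended on the scaling. Setting library medians equal put the median of all genes at 0.01 in place of −0.16, called 3116 genes higher and 2755 lower in place of 1899 and 4640, and called 4 members higher and 3 lower. HSPA8 (log2 difference −0.04, adjusted p = 0.531) and HSPH1 (−0.08, adjusted p = 0.146) then lost their calls, and DNAJA1 gained one (0.23, adjusted p = 0.00129). The HSPA8 call was also lost without shGFP DMSO library 1 (adjusted p = 0.0575) and without shMLKL DMSO library 2 (adjusted p = 0.0558).

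Under TBZ HSPA13 was the only member called higher in shMLKL cells, at 3.28-fold, while 8 members were lower, against 20.7% of all genes called higher and 31% lower (51.7% in either direction). HSPB1 stood at 0.35 times its shGFP level, HSPA1A at 0.53, HSPA1B at 0.57, HSPA8 at 0.68 and HSPH1 at 0.70 times. The log2 differences were 1.63 for HSPA13 (SE 0.09, limma adjusted p = 1.16e-05), −1.44 for HSPB1 (SE 0.07, limma adjusted p = 7.84e-06) and −0.78 for HSPA1A (SE 0.07, limma adjusted p = 0.0001). DNAJB1, higher in shMLKL cells under DMSO, was lower in them under TBZ (−0.27, SE 0.05, limma adjusted p = 0.00398). HSP90AA1 differed by 0.04 (95% interval −0.03 to 0.11, limma adjusted p = 0.335). BAG3 was barely called (−0.21, limma adjusted p = 0.0485), and of the 8 fits that left out 1 library it was kept in 1, without shMLKL DMSO library 2, with adjusted p up to 0.215. With library medians set equal 2828 genes were called higher and 2354 lower in place of 2144 and 3216, HSP90AA1 was called higher (0.11, adjusted p = 0.0215), BAG3 was not called, and the members stood at 2 higher and 7 lower.

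**Figure D3:**
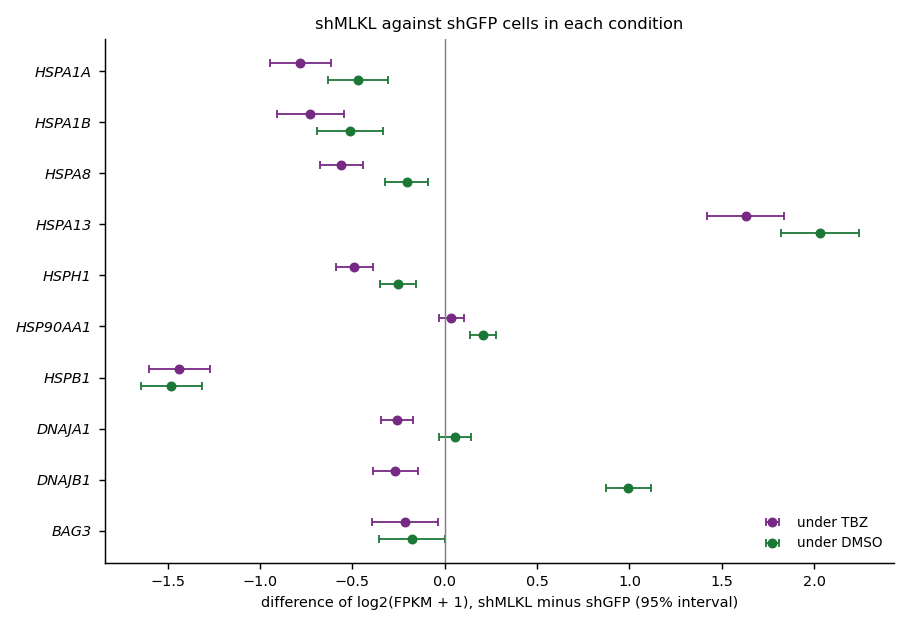
Log2 difference of each member between shMLKL and shGFP cells (horizontal axis, log2(FPKM + 1), shMLKL minus shGFP, points with 95% limma intervals) under TBZ and under DMSO. HSPA13 lies right of 0 and HSPB1 left of 0 in both conditions, and DNAJB1 changes side, at −0.27 under TBZ and 0.99 under DMSO.

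Over the 8 libraries the members fell into a few courses, given here as a description over points that share groups. HSPA1A, HSPA1B, HSPA8 and HSPH1 ran closely together, with Pearson correlations of log2(FPKM + 1) between 0.967 and 0.99. BAG3 ran with DNAJA1 (0.948). HSPA13 and HSPB1 ran opposite to each other (−0.985).

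Genes outside the group with the most similar course over the 8 libraries were also sought. For HSPA13 they were H3F3B, EDEM1 and HSPA5 (Pearson 0.9976, 0.9962 and 0.996). EDEM1 acts in the disposal of misfolded glycoproteins from the endoplasmic reticulum, and HSPA5 is the HSP70 of that compartment. The mean of HSPA5 was 502 FPKM in shMLKL TBZ, 465.5 in shMLKL DMSO, 270.0 in shGFP TBZ and 202 in shGFP DMSO. DNAJB1 was matched by RND3, JAG1 and SAT1 (0.9967, 0.9924 and 0.9902), and RND3 had means of 45.1, 48.5, 54.9 and 21.7 FPKM in the same order of groups. For HSPB1 they were TPM1, ERGIC2 and NSFL1C (0.9987, 0.9973 and 0.9971), of which TPM1, a tropomyosin, averaged 19.6, 22.7, 34.0 and 38.5 FPKM in that order. HSPA1A was most like ASS1, NEDD4L and KCNJ14 (0.9961, 0.9937 and 0.9934). DNAJA1 was most like NECAP1, SERPINA1 and DNAJB4 (0.9987, 0.9985 and 0.9981), and the value for DNAJB4 rests on a listed 0 in all 4 DMSO libraries.

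The RNA of the factors that switch on heat shock genes was measured in the same libraries. HSF1 had 14.8 and 14.0 FPKM in shMLKL TBZ, 17.3 and 15.9 in shMLKL DMSO, 17.9 and 17.3 in shGFP TBZ and 17.6 and 19.6 in shGFP DMSO. HSF2 had 2.89 and 2.68, 3.00 and 2.57, 3.36 and 2.54, and 4.47 and 3.24 FPKM in the same groups. Of this list HSF1, HSF2 and their regulator HSBP1 passed the filter. None of the 3 was called with TBZ in either line by limma. At an unadjusted p under 0.05 there was 1 in shMLKL cells, HSF1, and 0 in shGFP cells. Both factors lay near the threshold in 1 line. HSF1 in shMLKL cells was called lower with the filter at 5 FPKM (adjusted p = 0.0457), library medians set equal (0.0283), quantile normalization (0.0313), and without shGFP DMSO library 1 (0.0438) or 2 (0.044). HSF2 in shGFP cells was called lower with the replicate block (0.0315) and without shGFP DMSO library 2 (0.0396). The change of HSF1 was −0.19 in shMLKL cells (limma adjusted p = 0.0528) and −0.08 in shGFP cells (limma adjusted p = 0.347). That of HSF2 was 0.001 in shMLKL cells (limma adjusted p = 0.998) and −0.29 in shGFP cells (limma adjusted p = 0.119). Under TBZ HSF1 was lower in shMLKL than in shGFP cells (−0.27, SE 0.07, limma adjusted p = 0.011), a call lost without shMLKL TBZ library 2 (adjusted p = 0.0645), without shGFP TBZ library 1 (0.063) and with no filter on low values (0.0524).

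Other chaperone families were described by their counts of calls, to be read beside 20% of all genes called higher and 17.6% lower with TBZ in shMLKL cells, and 19.1% and 37.3% in shGFP cells. Of 16 HSP90 family members and co-chaperones, 6 rose and 0 fell with TBZ in shMLKL cells (9 at an unadjusted p under 0.05), and 8 rose and 3 fell in shGFP cells. Their median log2 change was 0.10 in shMLKL and 0.06 in shGFP cells, beside −0.004 and −0.12 over all genes. FKBP5, a co-chaperone of steroid receptors, had 19.2 ± 0.895 FPKM in shMLKL TBZ against 14.3 ± 0.749 in shMLKL DMSO, and 17.9 ± 0.109 FPKM in shGFP TBZ against 14.0 ± 0.476 in shGFP DMSO (SD, n = 2 each), a rise in both lines. PPID, a cyclophilin that binds HSP90, rose by 0.42 in shMLKL cells, and SUGT1, which joins HSP90 to immune receptors and kinetochore proteins, rose by 0.41 in shGFP cells. CACYBP, which resembles HSP90 co-chaperones in its CS domain, fell by 0.33 in shGFP cells, where PTGES3 and TRAP1 were the other genes of the list that fell. The CACYBP call was lost without shGFP TBZ library 1 (adjusted p = 0.0524) or shGFP DMSO library 1 (0.0507).

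Of 26 other J proteins that passed the filter, 7 rose and 5 fell with TBZ in shMLKL cells (median 0.02). In shGFP cells 6 rose and 9 fell (median −0.07). The shGFP shares are near those of all genes. The 5 that fell in shMLKL cells were DNAJA3, DNAJA4, DNAJC2, DNAJC7 and DNAJC14. DNAJB4, a cytosolic relative of DNAJB1, was listed at 10.7 and 11.5 FPKM in shMLKL TBZ and at 20.0 and 15.1 FPKM in shGFP TBZ, and at 0 in all 4 DMSO libraries, so no fold is given. DNAJB9, a J protein of the endoplasmic reticulum, rose in shMLKL cells, with 38.9 and 35.8 FPKM under TBZ against 21.4 and 21.9 under DMSO (log2 change 0.76, SE 0.06, limma adjusted p = 5.69e-05). In shGFP cells it was also higher under TBZ, at 18.9 and 20.0 FPKM against 14.5 and 13.4 under DMSO. DNAJC16 and DNAJC17 fell in shGFP cells, by 0.64 and by 0.81 on the log2 scale. The call of DNAJC17 was lost without shGFP TBZ library 1 (adjusted p = 0.0625) or shGFP DMSO library 2 (0.0551). Of 11 other BAG proteins and HSP70 regulators, 1 rose and 3 fell in shMLKL cells, and 1 rose and 6 fell in shGFP cells, beside the same shares of all genes. The 3 that fell in shMLKL cells were BAG1, BAG2 and STUB1, and the call of BAG1 was lost without library 2 of shMLKL TBZ or of shMLKL DMSO (adjusted p up to 0.0637). The 1 that rose was GRPEL1, the exchange factor of mitochondrial HSP70, by 0.45 in shMLKL and 0.46 in shGFP cells. BAG2, an inhibitor of the ubiquitin ligase CHIP, fell in both, to 15.5 and 15.2 FPKM in shMLKL TBZ against 18.0 and 17.8 in shMLKL DMSO, and to 13.3 and 12.4 FPKM in shGFP TBZ against 19.7 and 19.8 in shGFP DMSO.

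Beside 37.5% of all genes called in either direction in shMLKL cells, 2 of 15 chaperonin and prefoldin genes past the filter rose and 1 fell. TCP1 and CCT4 rose by 0.17 and 0.09, and CCT5 fell. These 3 calls were weak: with 1 library left out, CCT4 was called in 0 of 8 fits (adjusted p 0.059 to 0.185), TCP1 in 3, those without shMLKL DMSO library 2 or either shGFP DMSO library, and CCT5 in 5, lost without either shMLKL TBZ library or shMLKL DMSO library 1. In shGFP cells 0 rose and 1, CCT5, fell by limma, with 4 genes at an unadjusted p under 0.05, against 56.4% of all genes called. The chaperonin partner HSPE1 was listed at 0 in all 8 libraries and was not tested. Of 6 other HSP70 and HSP110 genes that passed the filter, 1 rose and 1 fell in shMLKL cells (HSPA4L and HSPA9). In shGFP cells 2 rose (HSPA5 and HSPA4L) and 2 fell (HSPA14 and HSPA4). The call of HSPA9 was kept in 2 of the 8 fits, those without a shGFP DMSO library, and that of HSPA14 was lost without any 1 of the 4 shGFP libraries. Of 8 other genes listed by symbol as small heat shock proteins, only HSPB11 passed the filter on low values. It fell by 0.19 in shGFP cells, a call lost without either shGFP TBZ library or shGFP DMSO library 1.

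Of 4 heat-inducible genes outside the chaperone families, UBB and IER5 rose and SERPINH1 fell in both lines. The UBB calls, at log2 changes of 0.13 in shMLKL and 0.12 in shGFP cells, were weak. In shMLKL cells the call was kept in 2 of the 8 fits with 1 library left out, those without a shGFP TBZ library (adjusted p 0.017 to 0.13 over the 8), and it was lost with no filter, equal medians or no trend. In shGFP cells it was lost without shGFP TBZ library 2 or either shGFP DMSO library (adjusted p up to 0.121), and with no filter, quantile normalization or no trend. IER5, an immediate early gene that acts on HSF1, had 10.6 and 10.5 FPKM in shMLKL TBZ against 4.79 and 4.66 in shMLKL DMSO, and 15.8 and 14.8 FPKM in shGFP TBZ against 3.06 and 3.49 in shGFP DMSO. SERPINH1, the collagen chaperone HSP47, fell by 0.55 in shMLKL cells and fell by 0.56 in shGFP cells on the log2 scale.

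The genes of these lists that differed most between the lines were taken by the same rule. Under DMSO, HSPA5 and HYOU1, its exchange factor, were higher in shMLKL than in shGFP cells by 1.20 and 0.81 on the log2 scale, and the J proteins DNAJC3 and DNAJC10, which work with HSPA5, by 0.94 and 0.69. Under TBZ the differences were 0.89 for HSPA5, 0.92 for HYOU1, 0.94 for DNAJC3 and 0.91 for DNAJB9. Lower in shMLKL cells were CACYBP (−1.22 under DMSO, −1.05 under TBZ), SERPINH1, a chaperone of the endoplasmic reticulum like HSPA5 (−1.17 and −1.16), and AHSA1, the activator of the HSP90 ATPase (−0.63 and −0.50). Each of these had a limma adjusted p of 0.000758 or less. The rule also took genes outside these groups. ZFAND2A was higher in shMLKL cells (0.62 under DMSO, 0.88 under TBZ). Lower were PFDN6 (−0.91 and −0.64), HSBP1 (−0.47 and −0.45), CCT5 (−0.43 and −0.37) and GRPEL1 (−0.30 and −0.31). BAG4 (−0.54) and HSPB11 (−0.17) were lower under DMSO, and BAG6 (−0.34) and HSF1 (−0.27) under TBZ. The DMSO calls of ZFAND2A and HSPB11 were each lost without some single library. Counts over whole lists stand beside 20.7% of all genes called higher and 31% lower under TBZ, and 18.3% and 44.8% under DMSO. Both splits shifted with library medians set equal, as given above. Under TBZ 3 of 6 other HSP70 and HSP110 genes were higher (HSPA5, HYOU1 and HSPA9) and 1 lower (HSPA4L). Under DMSO the same 3 were higher and HSPA4, HSPA4L and HSPA14 lower. Of the 16 HSP90 family members and co-chaperones, 1 was higher (HSP90B1, the HSP90 of the endoplasmic reticulum) and 8 lower under TBZ. Under DMSO 3 were higher (HSP90B1, CHORDC1 and SUGT1) and 10 lower. Of 26 other J proteins, 10 were higher and 9 lower under TBZ, and 8 higher and 9 lower under DMSO. Of 15 chaperonin and prefoldin genes, 6 were higher and 5 lower under TBZ, and 2 higher and 5 lower under DMSO.

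The first experiment gives other times and the parental cells, with 1 library a group and therefore no test. Its values are sums of the RefSeq transcripts of a gene, with the intervals that were deposited for each transcript added up, and they cover the estimation within a library only. After 4 h of TBZ in parental cells 4 of the 10 members were at least 2-fold higher on the log2(FPKM + 1) scale and none lower, against 9.5% of 10282 genes higher and 13.8% lower (23.3% in either direction). DNAJA1 had 442 FPKM under TBZ (interval 423 to 461) against 141 under DMSO (135 to 148), and HSPA8 had 746 (714 to 777) against 249.7 (238 to 261). DNAJB1 had 150.1 FPKM (143 to 157) against 61.0 (57.9 to 64.1), and BAG3 had 35.7 (33.7 to 37.6) against 15.7 (14.6 to 16.8). HSPB1 was the only member with a lower value under TBZ, 117 FPKM (111 to 124) against 131 (124 to 139), and these intervals nearly meet. With library medians set equal its log2 change was 0.09 in place of −0.16, so that no member was lower, and 5 members were at least 2-fold higher, HSPA13 included. The median log2 change was 0.75 over the members and −0.23 over all genes.

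After 12 h of TBZ in shMLKL cells only DNAJA1 was at least 2-fold higher, with 406 FPKM under TBZ (389 to 424) against 100.1 under DMSO (94.9 to 105), beside 9.52% of 10416 genes higher and 11.1% lower (20.6% in either direction). DNAJB1 had 71.3 FPKM under TBZ (67.9 to 74.7) against 60.2 under DMSO (56.6 to 63.8), a ratio of 1.18, and HSPA8 had 537 (514 to 559) against 623 (597 to 649.5), a ratio of 0.86. HSPA13 was level, at 16.4 FPKM under TBZ against 16.1 under DMSO. HSPB1 was lower, at 123 FPKM (116 to 129) against 163 (155 to 171). The median over the members was 0.68 and over all genes −0.14. MLKL itself had 2.145 FPKM after 12 h of TBZ in shMLKL cells (1.82 to 2.50) against 0.854 under DMSO (0.611 to 1.13). In parental cells it had 6.16 FPKM after 4 h of TBZ and 6.31 under DMSO. With the transcripts assembled at the same locus added, MLKL had 3.55, 2.205, 34.7 and 8.75 FPKM in the same order. Time and line differ together between the 4 h and 12 h comparisons, so they cannot be told apart.

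These ratios depend on which transcripts are summed, an alternative chosen after the data were seen. Adding the transcripts that were assembled at the same locus lowered the 4 h ratio of HSPA8 to 1.67 in place of 2.99, since RefSeq transcripts held 55.9% of the locus in parental DMSO and 100% in parental TBZ. The locus sum also lowered the 4 h ratios of DNAJA1, to 2.52 in place of 3.12, and of HSPB1, to 0.75 in place of 0.89. At 12 h it lowered DNAJA1 to 2.12 in place of 4.06, HSPH1 to 0.98 in place of 1.82 and HSP90AA1 to 0.93 in place of 1.71. DNAJB1, BAG3 and HSPA13 had the same value both ways in each comparison.

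**Figure D4:**
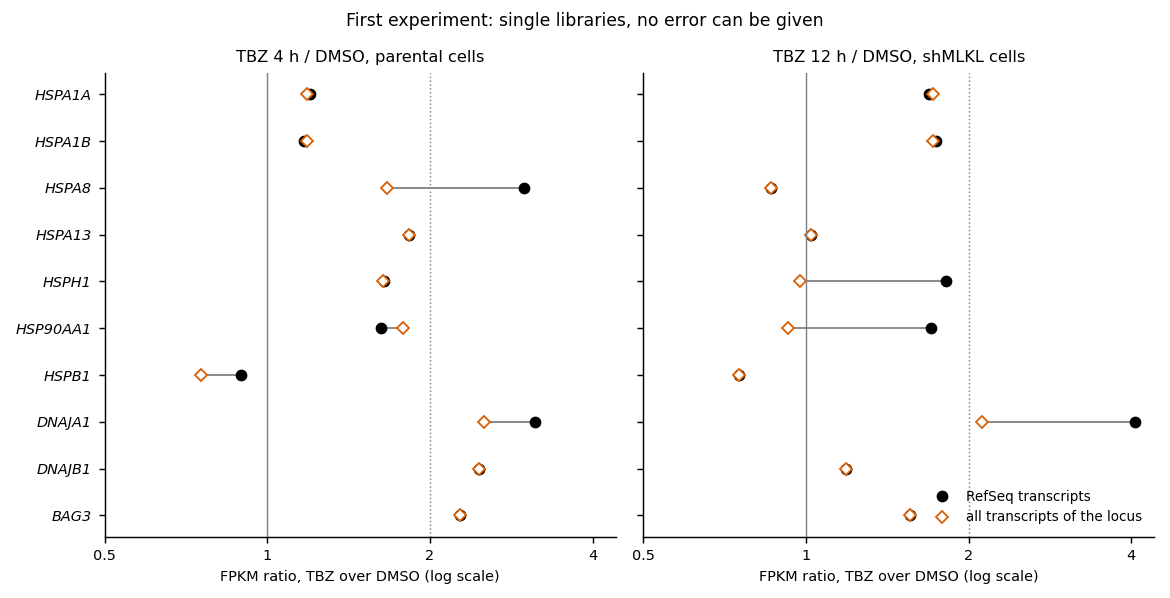
Ratio of FPKM, TBZ over DMSO (log-scaled horizontal axis), for each member in the single libraries of the first experiment, from RefSeq transcripts (filled circles) and from all transcripts of the locus (open diamonds), with a dotted line at 2. DNAJA1 is the only member right of the dotted line in both panels under both sums, and at 12 h DNAJA1 stands at 4.06 from RefSeq transcripts and 2.12 from the whole locus.

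Line differences under DMSO did not all have the same sign in the 2 experiments. HSPA13 was higher in shMLKL DMSO than in parental DMSO, at 16.1 FPKM (15.1 to 17.0) against 9.43 (8.90 to 9.97), and HSPA1A was lower, at 117 (111 to 122) against 198 (190 to 207). HSPB1 stood at 163 FPKM in shMLKL DMSO (155 to 171) against 131 in parental DMSO (124 to 139), whereas in the second experiment it was lower in shMLKL than in shGFP cells. DNAJB1 stood at 60.2 FPKM in shMLKL DMSO against 61.0 in parental DMSO, whereas in the second experiment it was 2.04-fold higher in shMLKL than in shGFP cells under DMSO. HSPA8 stood at 623 FPKM in shMLKL DMSO (597 to 649.5) against 249.7 in parental DMSO (238 to 261). Its locus sum was 447 FPKM in parental DMSO and the same 623 in shMLKL DMSO. HSPH1 was lower in shMLKL DMSO from RefSeq transcripts but higher by the locus sum, at 55.9 against 28.6 FPKM in parental DMSO. In the second experiment HSPA8 and HSPH1 were lower in shMLKL than in shGFP cells under DMSO, at 0.87 and 0.83 times. These calls were lost with library medians set equal. The reference lines differ between the experiments. HSPA1A and HSPA1B had 117 to 238 FPKM in the first experiment and 2.68 to 11.5 FPKM in the second, so their levels are not compared across the experiments, and what sets them apart was not tested.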

How the data were processed

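Per the labels' protocols, polyadenylated RNA was made into stranded libraries and sequenced as paired-end reads. The submitters' processing notes name hg19 and, without roles, STAR 2.4.0f1, GATK, TopHat2 2.0.13 and Cufflinks 2.2.1; whether counting used strand is not given in the sources used here. For the first experiment the authors deposited Cufflinks transcript lists with FPKM, per the file headers. For the second the authors deposited 1 gene table without a unit in its header, taken as FPKM from its values and from the use of Cufflinks. It holds no read counts, so count tests were not run.

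For each symbol the line with the highest mean was used. Genes with a group mean of at least 1 FPKM were kept, 10364 in all. Values of log2(FPKM + 1) were fitted with limma 3.58.1 (R 4.3.3) over all 8 libraries, as group means with an empirical Bayes trend, 4 residual and 3.46 prior degrees of freedom and no replicate block. P-values are two-sided, Benjamini-Hochberg adjusted over the 10364 genes in each of 5 contrasts, and called under 0.05. On the log2(FPKM + 1) scale changes of genes near 0 are understated, and fold changes in the text are ratios of mean FPKM. The fit was tested on values simulated for the shGFP contrast (10364 genes, 200 of them changed, 10 runs). It recovered 74.2% of genes changed by 0.5 (log2), 96.2% of those changed by 1, 94% by −1 and 99.4% by 2. False calls averaged 8.5 a run.

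In the first experiment gene values are sums over RefSeq transcripts (48111 of 48711 matched to a symbol), and genes with at least 1 FPKM in either library were compared. An assembled entry of 89 bases held 83.3 to 89.9% of the summed FPKM there and entered no gene value. The HSPA1A and HSPA1B entries on 4 alternative haplotypes were at 0. Promoters came from RefSeq (GRCh38.p14), and gene positions from the deposited hg19 transcripts.

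The members, gene lists and tests were chosen with earlier results of these data known. Named genes are the members, MLKL, HSF1, HSF2, from each chaperone list up to 3 called genes of largest change in a TBZ contrast and 2 in the others, and the 3 genes most correlated with a member. Genes named only to complete a count of 5 or fewer (with TBZ, PTGES3, TRAP1, HSPA4, UBB, STUB1, DNAJA3, DNAJA4, DNAJC2, DNAJC7 and DNAJC14; between the lines, HSPA9, HSPA4L, HSP90B1, HSPA4, HSPA14, CHORDC1 and SUGT1) were chosen after their values were seen. Of the heat-inducible list 1 gene is not reported here, and the list's counts leave it out. Alternatives were another pseudocount, no or a stricter filter, summed lines, equal library medians, quantile normalization, no trend, the replicate block and leaving out each library.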

Additional observations from a re-analysis of the deposited data

Results flagged for a closer look

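The TBZ effect differed between the lines, by the test of the difference itself (shMLKL minus shGFP, limma, adjusted over all genes), for 5 members. Of all genes 22.3% were called in this contrast, 7.66% of them in the lower direction of these members and 14.6% higher. The differences were −1.26 for DNAJB1, −0.35 for HSPA8, −0.31 for DNAJA1, −0.24 for HSPH1 and −0.17 for HSP90AA1 on the log2(FPKM + 1) scale. The calls of HSPH1 and HSP90AA1 were weak. Each was lost without the trend and in most fits that left out 1 library, and HSP90AA1 turned to 0.03 with quantile normalization. HSPA8 lost its call in 1 such fit and with no filter on low values.

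The same test was passed by further genes that the naming rule took from the chaperone lists, and by MLKL. The effect of TBZ was smaller or more negative in shMLKL cells for IER5 (−0.92), CHORDC1 (−0.39) and HSPA5 (−0.31). For DNAJB4 the fitted value was −0.60, which depends on the pseudocount because the gene was listed at 0 in all 4 DMSO libraries, and its call was kept in 1 of the 8 fits that each left out 1 library, without shGFP TBZ library 2. The effect was larger or less negative in shMLKL cells for DNAJC16 (0.52), BAG2 (0.37), BAG5 (0.30) and HSPA4L (0.28). With 1 library left out, BAG5 was called in 1 of 8 fits, without shMLKL TBZ library 1 (adjusted p 0.0344 to 0.0928 over the 8), and it lost its call with equal medians, quantile normalization or no filter. HSPA4L was called in 3 of the 8, those without either shMLKL TBZ library or shMLKL DMSO library 1, and lost its call with equal medians (adjusted p = 0.0985). DNAJC16 lost its call without library 2 of shGFP TBZ (0.0547) or of shGFP DMSO (0.0527), and HSPA5 with quantile normalization (0.0961). For MLKL the difference was 0.66. MLKL fell with TBZ in shGFP cells (log2 change −0.71, limma adjusted p = 0.000595). In shMLKL cells its change was −0.05, with the gene at 0.395 to 0.651 FPKM in the 4 libraries. The call of the difference was lost without shGFP DMSO library 1 (difference 0.65) and with a pseudocount of 0.1 (limma adjusted p = 0.0905).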

How the results depend on the processing

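With 2 libraries a group, leaving out 1 assumes that the lone library of its group varies like the others. Over the 8 such fits, called members with TBZ in shMLKL cells ranged from 5 to 9 (9 with all libraries), and for the difference of TBZ effects from 3 to 4 (5 with all), with 1327 to 1683 genes called there (2306 with all). In those fits the sign changed for HSPB1 (−0.047 to 0.137) and BAG3 (−0.103 to 0.03) in the difference of effects, for HSF2 with TBZ in shMLKL cells (−0.08 to 0.083) and between lines under TBZ (−0.205 to 0.095), and for MLKL with TBZ in shMLKL cells (−0.175 to 0.068), none of them called. With library medians set equal the sign changed for HSPB1 in the difference of effects (−0.048), HSF1 between lines under DMSO (0.018), and HSF2 with TBZ in shMLKL cells (−0.027) and between lines under TBZ (0.022), and for HSPB1 after 4 h in parental cells (0.09, against −0.162). With quantile normalization it changed for HSP90AA1 in the difference of effects (0.027, against a called −0.17), BAG3 between lines under DMSO (0.023) and HSF2 between lines under TBZ (0.051). The cause of these reversals was not tested. Same-numbered libraries were not paired by any label, and their residuals correlated at −0.066 to 0.028. The replicate block called 10 members with TBZ in shMLKL cells, 6 in the difference of effects and 8 between lines under TBZ, and it changed 3 of 50 calls of members. In the 7 comparisons all other totals of called genes and members, both directions together, stayed within 1.5 times their reported value. Counts by direction moved further. With library medians set equal, genes called higher went from 1899 to 3116 between lines under DMSO and from 1512 to 696 in the difference of effects. Depth in fragments is unknown, so no counting interval is given.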
